A study of Mus musculus with 6 samples.

Results

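Keratin-associated proteins, the proteins that embed and cross-link the keratin filaments of the hair shaft, were followed through every probe set whose annotated gene symbol was Krtap with a number, together with the related genes Gm10228 and Gm10229. This gave 47 probe sets of 45037 on the array once control spots were left out. They carried 40 gene symbols one at a time, and 2 more probe sets were annotated to both Krtap3-2 and Krtap3-3 and belong to no single gene. The members covered 22 numbered subfamilies beside the Gm10228 and Gm10229 pair. By the naming convention of the subfamily number, 15 probe sets were high-sulfur (subfamilies 1, 3, 10 to 16 and 26), 13 were ultra-high-sulfur (4, 5, 9 and 17) and 17 were glycine-tyrosine-rich (6, 7, 8, 19, 21, 22 and the Gm pair). Krtap28-13 and Krtap31-1 were left unclassed.

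Keratin-associated proteins are made late in shaft differentiation, after the first hair keratins, as cells of the hair matrix move up into the cortex and cuticle. High-sulfur and ultra-high-sulfur proteins carry many cysteines and form disulfide bonds with keratins, whereas glycine-tyrosine-rich proteins have few cysteines and are known mostly from the cortex. The genes are short, mostly lie in tandem clusters of close relatives, and can therefore share sequence with one another, so a probe set may also record a close relative of the gene it is named for.

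The RNA was total RNA of mouse hair follicle bulbs taken on postnatal day 9, and 3 groups had 2 arrays each, labelled as biological replicates. The emN1 group came from areas with embryonic deletion and had no functional Notch1, the anN1 group came from areas deleted in anagen (the growth phase of the follicle) and had functional Notch1, and the third group was wild-type. Both anN1 and wild-type arrays served as controls in the study's design. The labels used here name no strain, Cre driver or number of animals, so p-values cover only the spread between these 6 samples, which may be technical. The first array set held emN1 replicate 1 and anN1 replicate 1, and the second held the other 4 arrays.

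The deposited values were signal units per probe set, and signals up to 112 were treated as not above background, from bacterial control probe sets that found no target. Over all probe sets, the median signal was between 220.0 and 263 on the 6 arrays. Both Notch1 probe sets were lower on each emN1 array than on each control array of the same set. The brighter one read 6498 and 6292 in emN1 against 15077 and 12527 in anN1 and 23750 and 34070 in wild-type, a difference of -1.55 on the log2 scale from the controls (SE 0.33, limma adjusted p = 0.0571), and the dimmer one fell by 0.96 (SE 0.17, limma adjusted p = 0.0230). Which exons were removed is not given in the labels. The array sets also differed in a spike-in measure of labelling along the transcript, the 3-prime over 5-prime signal ratio of the ThrX control, at 8.21 for emN1 replicate 1 and 22.7 for anN1 replicate 1 against 2.81 to 3.35 on the arrays of the second set. The ratios of those first-set arrays were 10.95 and 12.6 for TrpnX (3.26 to 5.40 in the second set), 2.03 and 2.16 for PheX (1.10 to 1.16), and 1.21 and 1.45 for LysX (1.08 to 1.16). The markers of the hair matrix, which defines the bulb, were present, with a summed signal of 90847 to 111736 and 0 of 5 measured genes past the test. The brightest in that sum were Mki67 (38391 to 45128) and Top2a (24809 to 42528). Hoxc13 read 4426 to 7217, Lef1 5495 to 10019 and Msx2 9566 to 14936.5.

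The Krtap probe sets as a group were brightest in emN1 hair bulbs. Their median signal was 2158 and 3873 on the emN1 arrays, 769 and 123 on the anN1 arrays, and 78.5 and 78.6 on the wild-type arrays. In limma on log2(signal + 17.8), 16 of the 47 members rose in emN1 against the 4 control arrays and 0 fell, while 1.24% of all probe sets rose and 0.659% fell. The median difference of all 47 was 3.13 log2 units, against -0.00 over all probe sets. That median was 0.95 without emN1 replicate 2, and 4.56 without emN1 replicate 1 or anN1 replicate 1. The range over members ran from -2.32 to 6.54. Both emN1 signals lay above all 4 control signals for 34 members, compared with 9.28% of all probe sets. In bulk RNA, a difference in the number of cells of a type and a difference in RNA per cell cannot be told apart.

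By class, 10 of 15 high-sulfur, 2 of 13 ultra-high-sulfur and 4 of 17 glycine-tyrosine-rich members rose, and 0 of 2 unclassed ones. The class medians lay closer together than those counts, at 4.12, 2.97 and 3.13 log2 units for the 3 named classes. The residual SD of the fit had a median of 0.84 log2 units in high-sulfur members, 1.44 in ultra-high-sulfur and 1.41 in glycine-tyrosine-rich members, and 0.38 over all probe sets. This fit pools anN1 with wild-type, so a difference between those groups adds to its residual SD. In a fit with 3 separate groups the medians were 0.57, 1.65 and 1.07, and 0.35 over all probe sets. No difference between classes was tested. Krtap16-3, counted as high-sulfur by its number, lies between Krtap19-9b and Krtap22-2 in the gene order; moved to the glycine-tyrosine-rich class, its probe sets would make the counts 8 of 13 and 6 of 19.

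The count of 16 rested on several arrays. Leaving out emN1 replicate 2, emN1 replicate 1 or anN1 replicate 1 left 0, 2 and 6 members past the threshold, with 18, 37 and 37 at an unadjusted limma p under 0.05. Without the intensity trend in limma's variance model 0 passed (smallest adjusted p = 0.156, 32 members at an unadjusted p under 0.05), and with signals raised to the background limit 5 did. The ranking of signals uses no model, and 34 members had both emN1 signals above every control. Omitting any 1 array can only keep or raise that count (34 to 37), so this range is no check on it.

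**Figure D1:**
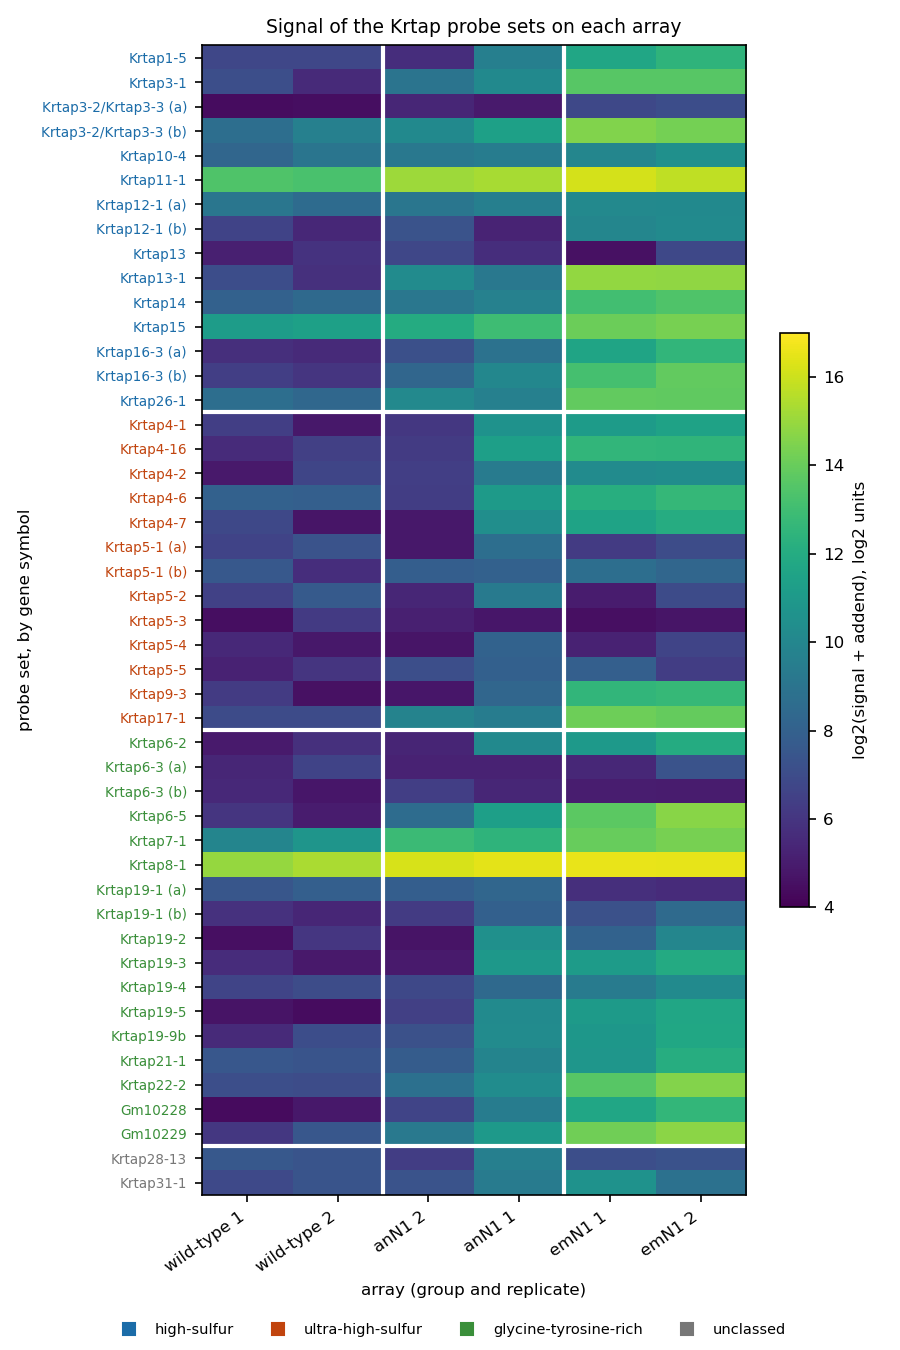
Each row is 1 Krtap probe set and each column 1 array, with colour giving log2(signal + 17.8) from dark (low) to yellow (high); the letters a and b mark different probe sets of the same gene, and white lines part the groups of arrays and the classes. Most rows brighten from the wild-type columns to the emN1 columns, and the ultra-high-sulfur Krtap4 rows are dark on anN1 replicate 2 and bright on anN1 replicate 1.

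Among high-sulfur genes, Krtap13-1, which encodes a cysteine-rich matrix protein, had the largest difference of any member. Its signal was 30796 and 28979 in emN1, 576 and 1233 in anN1, and 119 and 37.2 in wild-type. These groups did not overlap and stood in the order emN1, anN1, wild-type. The difference from the controls was 6.54 log2 units (SE 1.01, limma adjusted p = 0.0136). Its relative Krtap13, also in this subfamily, was at or under 94.4 on all 6 arrays, not above background on any.

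Krtap26-1 and Krtap14 were among the members with the smallest error. Krtap26-1 read 15062 and 14311 in emN1 against 794 and 1110 in anN1 and 399 and 311 in wild-type, and rose by 4.53 log2 units (SE 0.43, limma adjusted p = 0.00190). Krtap14 read 8663 and 10816 against 831 and 558 in anN1 and 248 and 328 in wild-type, and rose by 4.25 (SE 0.38, limma adjusted p = 0.00146). Both genes were above background on every array, so their differences are measured on both sides. Krtap15 read 17208 and 20318 in emN1, 8007 and 4003 in anN1 and 2301 and 2669 in wild-type, and rose by 2.12 (SE 0.34, limma adjusted p = 0.0161).

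In subfamily 3, Krtap3-1 read 12399 and 12706 in emN1, 1148 and 491 in anN1, and 123 and 28.7 in wild-type, and rose by 5.21 log2 units (SE 0.90, limma adjusted p = 0.0214). The brighter probe set shared by Krtap3-2 and Krtap3-3 read 24099 and 19755, then 2703 and 1123, then 402 and 782, and rose by 4.12 (SE 0.42, limma adjusted p = 0.00253). The 3 groups kept the same order in both. The dimmer shared probe set followed at 94.97 and 116 in emN1, 13.3 and 24.4 in anN1 and 3.59 and 4.75 in wild-type, where only 1 array exceeded the background limit, and did not pass (limma adjusted p = 0.114).

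Krtap16-3 rose on both of its probe sets. The brighter (s-suffixed, a design that can match several transcripts) read 9195 and 14917 in emN1, 1017 and 298 in anN1, and 68.4 and 46.1 in wild-type, a difference of 5.43 log2 units from the controls (SE 0.83, limma adjusted p = 0.0128). The other read 3044 and 6110, then 456 and 124, then 35.7 and 29.0, a difference of 4.94 (SE 0.77, limma adjusted p = 0.0139). Neither was above background in wild-type, and emN1 exceeded wild-type at least 105-fold and 38.6-fold. These lower bounds divide the emN1 mean by the background limit on each wild-type array, using means of log2 signal.

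Krtap1-5 and Krtap12-1 also rose, each with a reservation. Krtap1-5 read 3260 and 5573 in emN1, 769 and 34.8 in anN1, and 89.3 and 89.8 in wild-type (log2 difference 4.45, SE 0.75, limma adjusted p = 0.0195). Its anN1 replicate 2 lay under both wild-type arrays, so the anN1 and wild-type ranges overlapped. The s-suffixed Krtap12-1 probe set read 977 and 1157 in emN1, 21.1 and 143 in anN1, and 78.5 and 25.2 in wild-type, and rose by 4.12 (SE 0.61, limma adjusted p = 0.0116). The other Krtap12-1 probe set read 1093 and 1142, then 757 and 536, then 536 and 358, a difference of 0.96 that did not pass (SE 0.28, limma adjusted p = 0.161). Both probe sets had emN1 above every control.

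The remaining high-sulfur genes were above background on every array. Krtap11-1 read 72801 and 55753 in emN1, 40957 and 35566 in anN1, and 10829 and 9705 in wild-type, with no overlap. Against all controls its difference of 1.44 log2 units did not pass (SE 0.47, limma adjusted p = 0.226). Against each kind alone it passed, by 0.74 over anN1 (SE 0.11, limma adjusted p = 0.0274) and by 2.49 over wild-type (SE 0.12, limma adjusted p = 0.000208). Krtap10-4 read 969 and 1446 in emN1, 680 and 564 in anN1, and 292 and 520 in wild-type, and passed in no comparison.

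The ultra-high-sulfur class split by subfamily. Krtap17-1 and Krtap9-3 rose, all 5 Krtap4 probe sets were high in emN1 but missed the threshold, and the 6 Krtap5 probe sets were dim with no common direction. Krtap17-1, the only member of its subfamily here, read 17982 and 15774 in emN1, 676 and 873 in anN1, and 107 and 108 in wild-type. Replicates of each group lay close together, and the difference from the controls was 5.50 log2 units (SE 0.74, limma adjusted p = 0.00740). Wild-type was not above background, and emN1 exceeded it at least 151-fold. Krtap9-3 read 5988 and 6717 in emN1, 299 and 10.03 in anN1, and 59.5 and 6.26 in wild-type, so that anN1 replicate 1 was the only control above background. It rose by 6.20 (SE 0.74, limma adjusted p = 0.00452).

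Krtap4 genes encode ultra-high-sulfur proteins of the hair shaft, and the 5 measured here shared a pattern. Krtap4-16 read 5923 and 5844 in emN1, 2610 and 57.5 in anN1, and 31.1 and 71.7 in wild-type. Krtap4-6 read 4538 and 6443, then 2154 and 65.1, then 249 and 231, and Krtap4-7 read 2966 and 4175, then 1352 and 11.3, then 94.5 and 8.53. In each, anN1 replicate 1 stood nearer to the emN1 arrays on the log2 scale, and anN1 replicate 2 nearer to the wild-type arrays. Krtap4-1 read 2257 and 2812 in emN1, 1586 and 51.9 in anN1, and 67.6 and 10.5 in wild-type, while Krtap4-2 read 1228 and 1307, then 662 and 66.7, then 11.9 and 88.2. All 5 had both emN1 signals above every control, with log2 differences of 2.97 to 4.39 and limma adjusted p-values of 0.0524 (Krtap4-16) to 0.125 (Krtap4-1). Over wild-type alone, emN1 was at least 52.6-fold higher for Krtap4-16, 31.5-fold for Krtap4-7, 22.5-fold for Krtap4-1 and 11.3-fold for Krtap4-2, although none passed limma there (adjusted p = 0.0956 to 0.306 over the 5).

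Krtap5 genes encode ultra-high-sulfur proteins known from the hair cuticle, and 0 of 6 probe sets passed against the controls, with 0 also at an unadjusted limma p under 0.05. The x-suffixed Krtap5-1 probe set was the brightest, at 392 and 296 in emN1, 245 and 218 in anN1, and 175 and 34.2 in wild-type (log2 difference 1.00, SE 0.65, limma adjusted p = 0.614). Both of its emN1 signals lay above every control, but its replicates in wild-type differed more than the anN1 and emN1 means did. The second Krtap5-1 probe set read 59.2 and 111 in emN1, 391 and 11.05 in anN1, and 81.7 and 142 in wild-type. Krtap5-2 read 13.8 and 108, then 611 and 23.8, then 74.9 and 184, and Krtap5-4 read 20.02 and 82.3, then 252 and 8.92, then 28.1 and 10.3. In all 3 the highest signal was that of anN1 replicate 1. Krtap5-5 read 229 and 63.2 in emN1, 233 and 123 in anN1, and 20.7 and 45.5 in wild-type, and Krtap5-3 was not above background on any array (4.47 to 54.9). The median difference of the 6 was -0.29 log2 units; for Krtap5-2 and the second Krtap5-1 probe set the sign turned from -1.46 to 0.45 and from -0.52 to 0.74 when emN1 replicate 1 or anN1 replicate 1 was left out.

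Glycine-tyrosine-rich genes that rose were Krtap22-2, Gm10228, Gm10229 and Krtap21-1. Gm10229 read 18358 and 26918 in emN1, 2043 and 604 in anN1, and 52.3 and 165 in wild-type, and Gm10228 read 3266 and 6139, then 689 and 85.4, then 2.82 and 11.3. The log2 differences were 5.51 (SE 0.93, limma adjusted p = 0.0204) and 5.26 (SE 1.03, limma adjusted p = 0.0376). Krtap22-2 read 12545 and 24541 in emN1, 1275 and 425 in anN1, and 124 and 112 in wild-type, with replicate 2 just over the background limit, and rose by 5.47 (SE 0.74, limma adjusted p = 0.00774). All 3 kept the order emN1, anN1, wild-type without overlap. Krtap21-1 read 1832 and 4436, then 922 and 199, then 169 and 148, and rose by 3.13 (SE 0.63, limma adjusted p = 0.0447).

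In subfamily 6, Krtap6-5 read 13671 and 25981 in emN1, 2601 and 364 in anN1, and 45.3 and 13.7 in wild-type. Its difference of 5.85 log2 units from the controls was exceeded only by those of Krtap13-1 and Krtap9-3, and missed the threshold (SE 1.24, limma adjusted p = 0.0539). Against wild-type alone it rose by 8.26 (SE 0.83, limma adjusted p = 0.00533), and emN1 was at least 169-fold higher. Krtap6-2 read 2004 and 4047 in emN1, 1127 and 23.3 in anN1, and 13.4 and 38.2 in wild-type, showing the same split of anN1 replicates as in Krtap4. The Krtap6-3 probe sets were near background, the higher single signal being 143 on emN1 replicate 2.

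Subfamily 19, small glycine-tyrosine-rich proteins of the shaft, had the most members here, and 0 of its 7 probe sets passed against all controls (5 at an unadjusted limma p under 0.05). Krtap19-3 read 2241 and 3873 in emN1, 1966 and 12.4 in anN1, and 33.0 and 11.96 in wild-type, while Krtap19-5 read 2158 and 3323, then 1169 and 71.5, then 7.82 and 4.07. Krtap19-9b read 1839 and 3362, then 1209 and 130, then 29.7 and 116. These 3 and Krtap19-4 (656 and 1159 in emN1, 331 and 96.2 in anN1, 85.4 and 111 in wild-type) had both emN1 signals above every control. Krtap19-2 did not: its highest signal was 1436 on anN1 replicate 1, against 257 and 983 in emN1, 8.30 on anN1 replicate 2, and 5.54 and 48.1 in wild-type. Krtap19-5 alone passed against wild-type, by 6.05 log2 units (SE 1.00, limma adjusted p = 0.0370).

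The probe sets of Krtap19-1 went opposite ways. The first was the only member with both emN1 signals below all 4 controls, which 8.09% of all probe sets had, at 35.2 and 30.7 in emN1, 291 and 219 in anN1, and 159 and 229 in wild-type (log2 difference -2.32, SE 0.49, limma adjusted p = 0.0534). The second read 129 and 337 in emN1, 234 and 59.4 in anN1, and 39.7 and 24.3 in wild-type (log2 difference 1.27, SE 0.77, limma adjusted p = 0.575). Neither passed in this fit. The first fell with an addend of 1 (log2 difference -2.80, limma adjusted p = 0.0496) or quantile normalization (-2.37, limma adjusted p = 0.0444), which then made 1 member called lower. Under the other 10 alternatives that tested it, its limma adjusted p was 0.0624 to 0.310.

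Krtap8-1 and Krtap7-1, glycine-tyrosine-rich genes that are each alone in their subfamily here, were above background on every array. Krtap8-1 had the highest deposited signal of the members, which is not a measure of abundance between genes, at 96243 and 93826 in emN1, 91264 and 74769 in anN1, and 31211 and 42221 in wild-type. It differed from all controls by 0.64 log2 units (SE 0.32, limma adjusted p = 0.466), from anN1 by 0.20 (SE 0.15, limma adjusted p = 0.728), and rose over wild-type by 1.31 (SE 0.17, limma adjusted p = 0.0150). Krtap7-1 read 16016 and 20480 in emN1, 5518 and 7480 in anN1, and 934 and 1735 in wild-type. It rose over anN1 by 1.49 (SE 0.25, limma adjusted p = 0.0437) and over wild-type by 4.01 (SE 0.28, limma adjusted p = 0.00110), while its difference from the pooled controls, 2.50, did not pass (SE 0.70, limma adjusted p = 0.144).

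Of the unclassed genes, Krtap31-1 read 1554 and 442 in emN1, 659 and 143 in anN1, and 101 and 148 in wild-type with emN1 replicate 1 above replicate 2, unlike most members. Krtap28-13 read 121 and 137 in emN1, 773 and 64.7 in anN1, and 171 and 147 in wild-type. Neither passed (limma adjusted p = 0.0771 and 0.663).

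**Figure D2:**
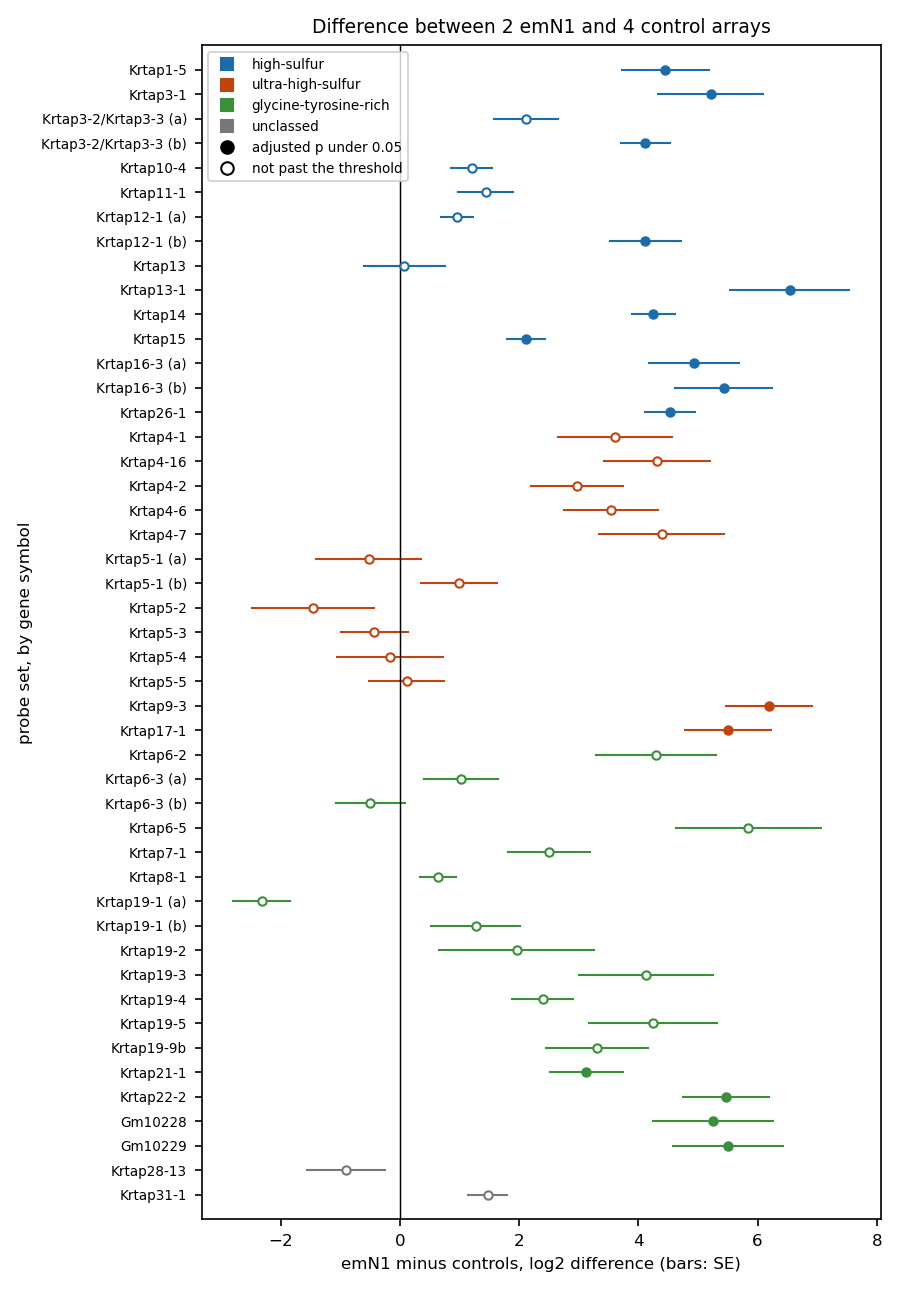
Each point is the log2 difference of 1 Krtap probe set between 2 emN1 and 4 control arrays with its SE, coloured by class and filled where limma's adjusted p was under 0.05; the letters a and b mark different probe sets of the same gene. Filled points lie between 2.12 and 6.54, while the Krtap5 points straddle 0 and the Krtap4 points lie to the right of 0 but are open.

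Promoters of members that stood high in emN1 together are shown to let their sequences be compared beside these values. Those of Krtap5-1 and Krtap5-5, which passed in no comparison, are shown as well. Each is the 100 bases that end just before the annotated start of the gene, 5-prime to 3-prime on the gene's own strand, from RefSeq on GRCm38.p6, with the letters TATAAA in capitals.
Krtap13-1, chr16:88728762-88728861, plus strand: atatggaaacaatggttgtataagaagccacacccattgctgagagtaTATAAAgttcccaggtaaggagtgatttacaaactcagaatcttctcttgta
Krtap26-1, chr16:88647797-88647896, minus strand: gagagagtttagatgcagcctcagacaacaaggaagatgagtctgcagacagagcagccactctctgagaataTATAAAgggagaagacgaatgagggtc
Krtap17-1, chr11:99993995-99994094, minus strand: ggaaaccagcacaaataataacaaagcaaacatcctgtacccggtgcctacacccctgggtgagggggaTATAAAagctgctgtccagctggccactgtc
Krtap4-6, chr11:99665961-99666060, minus strand: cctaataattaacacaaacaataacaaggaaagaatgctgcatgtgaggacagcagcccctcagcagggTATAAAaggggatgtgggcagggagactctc
Krtap4-7, chr11:99644090-99644189, minus strand: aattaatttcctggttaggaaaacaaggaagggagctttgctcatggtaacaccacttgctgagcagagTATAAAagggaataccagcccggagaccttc
Gm10228, chr16:89041473-89041572, minus strand: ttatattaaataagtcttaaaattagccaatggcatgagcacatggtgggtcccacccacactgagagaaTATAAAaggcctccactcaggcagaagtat
Gm10229, chr16:89015177-89015276, plus strand: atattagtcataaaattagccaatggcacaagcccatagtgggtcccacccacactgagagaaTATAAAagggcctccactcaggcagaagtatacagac
Krtap6-5, chr16:89047900-89047999, minus strand: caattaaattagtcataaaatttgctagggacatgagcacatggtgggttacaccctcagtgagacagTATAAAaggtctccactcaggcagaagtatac
Krtap5-1, chr7:142297135-142297234, minus strand: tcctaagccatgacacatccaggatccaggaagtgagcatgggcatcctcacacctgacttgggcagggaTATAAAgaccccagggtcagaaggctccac
Krtap5-5, chr7:142229972-142230071, minus strand: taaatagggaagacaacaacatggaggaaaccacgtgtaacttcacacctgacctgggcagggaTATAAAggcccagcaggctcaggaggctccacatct

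In these promoters TATAAA began 27 to 52 bases before the start. Gm10228 and Gm10229, which rose together, shared an unbroken run of 34 bases around it, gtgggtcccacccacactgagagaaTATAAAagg, found in 2 of 32851 promoters. With Krtap6-5 they shared the 20 bases ctccactcaggcagaagtat, downstream of the capitals, found in 5 promoters of the whole table. Krtap5-1 and Krtap5-5, neither of which passed, shared the 17 bases tgggcagggaTATAAAg. Krtap13-1, Krtap17-1 and Krtap26-1, which all rose, shared a run of only 7 bases, found in 788 promoters. Krtap4-2, Krtap4-6 and Krtap4-7, high in emN1 together, shared only 8 bases, found in 247 promoters. A long shared run was thus seen in some of these groups and not in others. A TATAAA is present both in genes that passed the threshold and in genes that did not.

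Across the 40 of 42 member genes with a promoter in the table, the 250 bases before the start were searched on both strands. TATAAA was found in 31 (77.5%), against 12.4% of all 32851 promoters. Letters for HOXC13, a homeobox factor known to bind hair keratin promoters (TTTATNAA or TTTATNAG or TTTATNGA or TTTATNGG or TTAATNAA or TTAATNAG or TTAATNGA or TTAATNGG), were found in 19 (47.5%) against 17.2%, and in 9 of 12 high-sulfur, 5 of 12 ultra-high-sulfur and 4 of 14 glycine-tyrosine-rich promoters. Letters for LEF1 and TCF, the DNA-binding partners of beta-catenin (CTTTGAA or CTTTGAT or CTTTGTA or CTTTGTT), were found in 16 (40.0%) against 14.8%. TGGGAA, the core letters bound by RBPJ, the DNA-binding partner of activated Notch, were found in 6 of 40 against 21.6%. The HOXC13 letters can overlap a TATAAA. Such matches describe letters in the window and show no binding.

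Taking each kind of control alone, 15 members rose over anN1, against 0.673% of all probe sets, and 19 rose over wild-type, against 0.788%. None fell in either, against 0.351% and 0.315% of all probe sets. By class these were 9 high-sulfur, 2 ultra-high-sulfur and 4 glycine-tyrosine-rich members over anN1, and 10, 2 and 7 over wild-type. Both comparisons share the emN1 arrays. In all, 12 members passed against the pooled controls and against each kind alone, 21 passed in at least 1 of these, and 26 passed in no comparison. These overlaps were not counted over all probe sets, so they only describe the members. Among the members that passed, the largest differences from anN1 were those of Krtap9-3 (6.08 log2 units), Krtap13-1 (5.12), Krtap22-2 (4.54), Krtap17-1 (4.42) and the brighter Krtap16-3 probe set (4.36). Those from wild-type were Krtap13-1 (8.68), Krtap6-5 (8.26), Gm10229 (7.32), Krtap17-1 (7.11) and Gm10228 (7.05). For 25 members neither wild-type array was above background, and for 18 of these both emN1 arrays were, which gives lower bounds of 1.87-fold to 169-fold.

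These counts also turned on single arrays. Over anN1, 0 members passed without any 1 of the 4 emN1 and anN1 arrays (25 to 32 at an unadjusted limma p under 0.05) and 29 passed without either wild-type array. Over wild-type, 0 passed without emN1 replicate 1 or 2 (37 and 23 at an unadjusted limma p under 0.05), 4 without anN1 replicate 1, 5 without anN1 replicate 2 and 30 without either wild-type array. Without array set as a term, the count over anN1 was 7.

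Between the controls, Krtap signals were mostly higher in anN1 than in wild-type. The median difference was 1.22 log2 units against 0.03 over all probe sets, and 2 members rose and 0 fell, while 0.0311% of all probe sets rose and 0.0133% fell. Krtap11-1 rose by 1.75 (SE 0.12, limma adjusted p = 0.00347) and Krtap17-1 by 2.69 (SE 0.25, limma adjusted p = 0.0163). Krtap7-1 differed by 2.52 (SE 0.28, limma adjusted p = 0.0524) and Krtap8-1 by 1.10 (SE 0.17, limma adjusted p = 0.225). Both anN1 arrays lay above both wild-type arrays for 25 members, compared with 17.3% of all probe sets. The full order of wild-type, anN1 and emN1 without overlap held for 23 members, 12 of them high-sulfur, 9 glycine-tyrosine-rich and 2 ultra-high-sulfur, compared with 2.03% of all probe sets. The median difference was 0.69 without anN1 replicate 1 or either emN1 array, and 2.69 without anN1 replicate 2. Within the second array set, which held both wild-type arrays, the median of anN1 replicate 2 minus wild-type differed by class. It was 1.26 in high-sulfur, 0.89 in glycine-tyrosine-rich, -0.18 in ultra-high-sulfur and -0.45 in unclassed members. With any 1 emN1 or anN1 array left out 0 members passed between anN1 and wild-type (18 at an unadjusted limma p under 0.05, or 33 without anN1 replicate 2), and 11 or 12 passed without 1 wild-type array.

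The anN1 replicates, run in different array sets, differed widely in many Krtap members. Signals were at least 4-fold higher on anN1 replicate 1 than on replicate 2 for 20 of 47 members, compared with 3.12% of all probe sets, and at least 4-fold lower for 1, compared with 2.15%. These 20 were 9 of 13 ultra-high-sulfur, 8 of 17 glycine-tyrosine-rich, 1 of 15 high-sulfur and both unclassed members. All 5 Krtap4 probe sets were among them, with ratios of 9.93 to 120. Ratios in subfamily 19 ran from 1.33 to 173. In contrast, Krtap13-1, Krtap17-1, Krtap26-1 and Krtap7-1 were lower on anN1 replicate 1, at ratios of 0.467, 0.774, 0.715 and 0.738. The 3-prime over 5-prime spike ratios of these same arrays were 22.7 and 3.03 for ThrX, 12.6 and 4.06 for TrpnX, 2.16 and 1.14 for PheX, and 1.45 and 1.13 for LysX, and the array set moved with them. Their part in the difference was not tested.

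**Figure D3:**
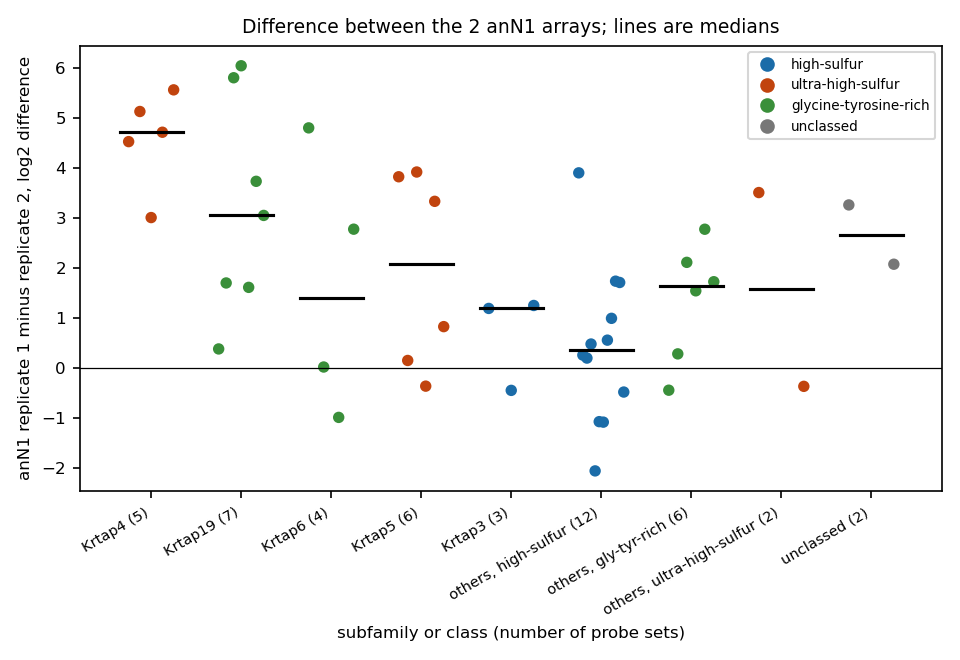
Each point is the log2 difference of 1 Krtap probe set between anN1 replicate 1 and replicate 2, grouped by subfamily or, for smaller subfamilies, by class, with colours for the classes and black lines for medians. Krtap4 points lie between 3.01 and 5.56 with a median of 4.71, while all but 1 of the high-sulfur points lie between -2.05 and 1.74.

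The difference between emN1 and anN1 also depended on the array set. In the first set emN1 was higher than anN1 for 36 members, compared with 45.9% of all probe sets, with a median difference of 0.95 log2 units. In the second it was higher for 43, compared with 52.4%, with a median of 3.97. The second-set difference was the larger for 36 of 47 members, and 7 members had opposite signs in the sets. By class the medians were 2.69 and 3.67 in high-sulfur, 0.64 and 3.97 in ultra-high-sulfur and 0.82 and 4.51 in glycine-tyrosine-rich members. In Krtap4, emN1 was 1.42 to 2.27 times anN1 in the first set and 19.6 to 371 times in the second. Krtap13-1, at 53.5 and 23.5 times, and Krtap17-1, at 26.6 and 18.1 times, were high in both. At least 4-fold higher emN1 signals in both sets were found for 15 members, 9 of them high-sulfur, compared with 0.311% of all probe sets.

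**Figure D4:**
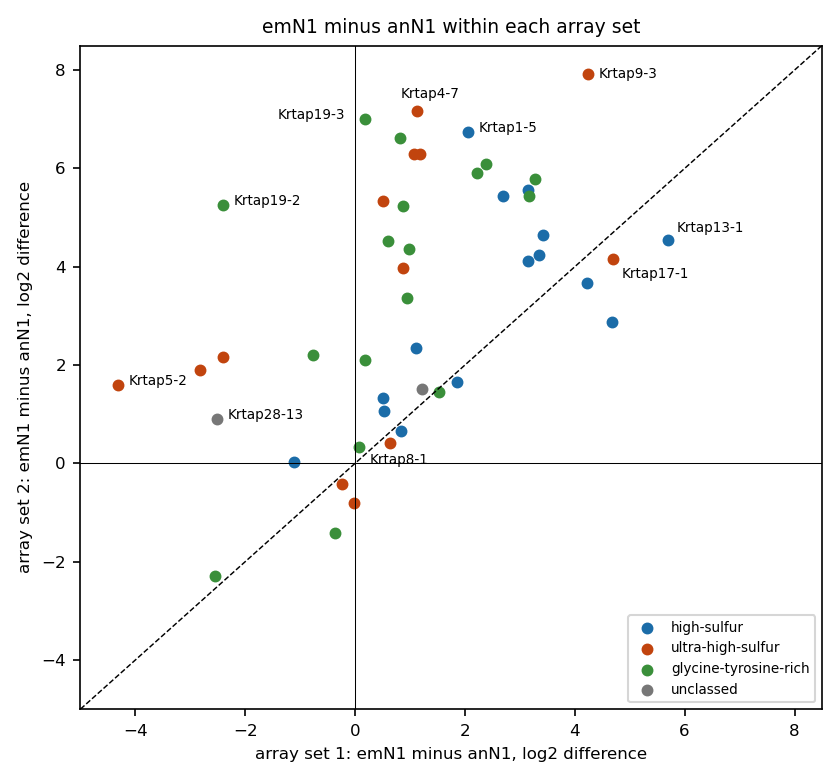
Each point is 1 Krtap probe set, with its emN1 minus anN1 log2 difference in the first array set on the x axis and in the second on the y axis, coloured by class; the dashed line marks equal differences. Krtap13-1 and Krtap17-1 lie below the line, while Krtap4-7, Krtap19-3 and the high-sulfur Krtap1-5 lie far above it and Krtap5-2 lies left of 0.

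The emN1 replicates were closer to each other. Replicate 2 was the higher for 35 members, 14 of 17 glycine-tyrosine-rich, 11 of 15 high-sulfur and 9 of 13 ultra-high-sulfur. The median difference of replicate 2 from replicate 1 was 0.35 log2 units, against 0.09 over all probe sets, and was largest in the glycine-tyrosine-rich class at 0.86, where Gm10228, Krtap6-5, Krtap22-2 and Krtap6-2 had ratios of 1.88, 1.90, 1.96 and 2.02. In the high-sulfur class it was 0.24. Krtap13-1, Krtap17-1 and Krtap26-1 were again slightly the other way, at 0.941, 0.877 and 0.950.

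Hair keratins, the filament proteins that Krtap proteins bind, rose in part. Of 16 listed, 12 were measured, 4 rose in emN1 against the controls and 0 fell, with a median difference of 1.77 log2 units. Krt86 read 14262 and 20088 in emN1, 525 and 327 in anN1, and 103 and 32.7 in wild-type (log2 difference 6.26, SE 0.75, limma adjusted p = 0.00447). Krt34 rose by 5.87 (SE 0.84, limma adjusted p = 0.00930) and Krt33b by 4.95 (SE 0.86, limma adjusted p = 0.0222). Of 16 transcription factors and receptors known to act in shaft formation, with 46 probe sets, only Vdr, the vitamin D receptor needed for hair cycling, had probe sets that rose, 2 of them by 0.70 and 0.71 (SE 0.10 and 0.14, limma adjusted p = 0.00856 and 0.0364). The median over these regulators was -0.03. The 6 calls of both lists became 0 without emN1 replicate 1, emN1 replicate 2 or anN1 replicate 1 (22, 16 and 22 probe sets at an unadjusted limma p under 0.05).

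Markers of several cell types also differed in emN1. The summed signal of 9 measured shaft cortex and cuticle markers was 367539 and 338637 in emN1, 266723 and 184125 in anN1, and 115103 and 116003 in wild-type, with 4 genes higher. Except for S100a3, these markers are also in the hair keratin list above. The 4 higher genes are the same 4 that rose there, so they are no separate observation. Melanocyte markers were lower in 6 of 8 genes, with sums of 114521 and 96096 in emN1 against 210730 to 304103 in the controls. Fibroblast markers were higher in 3 of 6 genes (110679 and 92228 against 59840 to 79862), and immune markers in 2 of 6 (5633 and 6724 against 1212 to 1578). Among the other lists, outer root sheath and basal epidermis had 3 genes higher and 2 lower of 5, inner root sheath 2 higher of 9, dermal papilla 2 lower of 6, and endothelium and pericyte 1 higher of 5. No marker of the first 4 lists was at or under background on all arrays. Their part in the Krtap differences was not tested.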

How the data were processed

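The authors deposited 1 linear intensity for each probe set and array. The submitters' processing notes name MAS5, whose version and settings were not given in the sources used here. Each array's values between the 2nd and 98th percentile averaged 1500.01, and no further scaling was applied. Groups and replicate numbers came from the sample titles. Of 45101 probe sets, 64 were controls and were dropped. Names came from the platform annotation (34958 probe sets with 1 symbol, 932 with several, 9211 with none). All 47 members matched by gene identifier in a RefSeq table of GRCm38.p6 and 0 symbols changed.

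Signals were transformed to log2(signal + 17.8), where 17.8 is the 10th percentile of the whole table, which understates changes of dim probe sets. The background limit of 112 was the 95th percentile of 120 values of 20 undetected bacterial control probe sets (median 24.4). Two-sided tests were made with lmFit and eBayes of limma 3.58.1 (R 4.3.3), with an intensity trend, over all 45037 probe sets without a filter, because a filter on mean signal keeps members through the group where they are high. P-values were adjusted by Benjamini-Hochberg with a threshold of 0.05. The pooled-control fit of 2 against 4 arrays had 3 residual and 6.03 prior degrees of freedom, and the fit with 3 groups had 2 and 5.82. Array set was a term of both. It equals the replicate number of emN1 and anN1 in the series' design text, which pairs those arrays; wild-type numbers mark no set. The fit was tested on simulated data. Precision is limited by there being 2 arrays per group. No detection calls were used.

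The members and gene lists were chosen with earlier results of these data known, so no test of a list was made and counts are set beside those of all probe sets. Signals on each array are given for every member except Krtap13, Krtap5-3 and the Krtap6-3 probe sets, which have a highest signal or range. Statistics were named by rule: the brightest probe set of each subfamily, the 10 largest and 5 smallest differences from the controls, up to 5 calls per direction in the other comparisons, and up to 3 genes per shaft list; others were chosen after their values were seen. Alternatives were the filter, the addend, signals raised to the background limit, quantile normalization, no intensity trend, no array set, 1 value per gene and leaving out each array. Another 4 probe sets that join a Krtap symbol with other symbols are not members. Figures were drawn with matplotlib 3.10.9.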

Additional observations from a re-analysis of the deposited data

Results flagged for a closer look

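Among the 4 control arrays, 5 of 47 members had 1 signal far from the other 3, by Dixon's test at the 95% level. Chance gives this in about 1 of 20 groups drawn from a single population. These arrays mix anN1 with wild-type, and only anN1 replicate 1 is of the first set. That rate need not hold here. In 4 of these 5 members the array was anN1 replicate 1: 2610 for Krtap4-16, 1966 for Krtap19-3, 922 for Krtap21-1 and 1127 for Krtap6-2. The fifth was wild-type replicate 2 for 1 of the Krtap6-3 probe sets, at 78.6, under the background limit. The first 4 had emN1 signals above all controls, so the high anN1 array lies toward emN1.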

How the results depend on the processing

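The named members called in the 4 comparisons kept their direction under every alternative run. The number of members called against the pooled controls moved from 16 to 5 with signals raised to the background limit and to 0 without the intensity trend, and ranged from 0 to 17 when 1 array was left out. Over anN1 it moved from 15 to 0, 0 and, with no replicate block (array set left out), 7, and ranged from 0 to 29. Over wild-type it moved from 19 to 6 and 0, and ranged from 0 to 30. Between anN1 and wild-type it moved from 2 to 0 and 0, to 1 with an addend of 100 and to 1 with no replicate block, and ranged from 0 to 12. For hair keratins and shaft regulators it moved from 6 to 3, 0 and, with no replicate block, 3, and ranged from 0 to 6. The cause was not tested. Leaving out 1 array of the 3-group fit leaves 1 residual degree of freedom. Other settings kept each count within 1.5 times, and the pairing changed no other count by more. Of 15 named members called against the pooled controls, 5 lost the call with no replicate block. Raising signals to the background limit lost 11 of these calls, and leaving out the intensity trend lost all 15. The difference turned positive without emN1 replicate 1 or anN1 replicate 1 for Krtap28-13 (0.17), Krtap5-2 (0.45) and one Krtap5-1 probe set (0.74); over all arrays left out in turn these ranged from -2.51 to 0.17, -4.31 to 0.45 and -2.41 to 0.74. The class of each subfamily could not be set beside protein composition here. Signal over background limits 33 members that were above 112 on some arrays only and 3 on none.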

Other observations

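The 4 probe sets that join a Krtap symbol with other symbols could not be given to 1 gene, and each was higher on both emN1 arrays than on every control array. The probe set of Gm10228, 1110025L11Rik and Krtap6-1 read 9712 and 17996 in emN1, 1024 and 219 in anN1, and 97.7 and 133 in wild-type. That of Gm11937, Gm11938 and Krtap2-4 read 1885 and 3534, then 632 and 4.86, then 7.78 and 20.6. That of Gm11554, Gm11569 and Krtap4-13 read 3987 and 3421, then 1788 and 81.3, then 42.7 and 24.997, with anN1 replicate 1 the highest control, as in the Krtap4 members. That of Gm11559, Gm11567, Gm11568 and Krtap9-1 read 558 and 1041, then 528 and 101, then 184 and 11.1.

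Grouped by position along the genome, the 12 members of the cluster with subfamilies 1, 3, 4, 9, 17 and 31 had 5 calls against the pooled controls and a median difference of 4.22 log2 units. The 25 of the cluster with subfamilies 6 to 8, 11, 13 to 16, 19, 21, 22 and 26 and the Gm pair had 10 calls and a median of 3.30. The 3 of Krtap10 and Krtap12 had 1 call and a median of 1.20, and Krtap28-13, apart from the others, had a difference of -0.90. The 6 Krtap5 probe sets, in a cluster of their own, had 0 calls (0 at an unadjusted limma p under 0.05) and a median of -0.29. That cluster is the same as subfamily 5, so its values repeat those given above. All calls were of higher signals, while 1.24% of all probe sets rose and 0.659% fell. No difference between clusters was tested.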
